A study of Drosophila melanogaster with 6 samples.

Results

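Signals of 37 genes of the mitotic spindle, the kinetochore and the spindle checkpoint were examined in intact embryos of Drosophila melanogaster, at stages 11 to 16, that made the transcription factor Sage throughout the body. The list held 48 names of 47 genes, since ald is another name of Mps1. A gene was taken as measured where a probe set of the Affymetrix array named it and no other gene, and where several did so the brightest on average was used. The 37 measured genes were among 11982 genes named in this way. No such probe set was found for polo, aurA, BubR1, Klp3A, cana, pav, sti, asp, gammaTub23C and cnn, so these 10 genes have no value here.

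The experiment compared 3 arrays of embryos carrying the tub-Gal4 driver and no UAS-Sage with 3 arrays of embryos in which tub-Gal4 drove a UAS-Sage transgene. Both groups therefore carried the driver, which is active in most cells and places the product far outside the salivary gland where sage is normally expressed. The design text describes the groups as matched in age and handling, and the comparison asked which transcripts differ when Sage is present in the entire embryo. Whether replicates were independent collections of embryos is not given in the labels, so what the spread behind the p-values measures is not known. Among the Sage arrays it may be only technical. Among the controls the log2 signals of 10 late epidermis and cuticle genes had a median SD of 0.88, beside 0.16 over all probe sets.

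Mitosis depends on a small set of machines. The kinetochore, built on centromeric chromatin, holds spindle microtubules, and the checkpoint kinases and Mad and Bub proteins delay anaphase until every chromosome is attached. Anaphase starts when securin is destroyed and separase cuts cohesin. Kinesins and centrosomes shape the spindle, and the centralspindlin proteins then set the site of cleavage. The egg is loaded with many of these transcripts for its rapid first divisions, and from mid-embryogenesis on they are found mostly in the cells that still divide, such as neuroblasts, while much of the epidermis leaves the cycle.

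The values were log2 signals per probe set, on which a difference of 1 is a doubling. The signal of sage itself was 7.38, 7.50 and 7.66 on the control arrays and 12.39, 12.53 and 12.50 on the Sage arrays (control replicates 1, 2 and 3, then Sage replicates 1, 2 and 3, the order used for all such lists). Every Sage array lay above every control array for sage. Array medians lay between 5.55 and 5.72. The control arrays were less alike than the Sage arrays. As a description over probe sets, which are not independent of each other, Pearson's r was 0.938 for control replicates 1 and 3 and at least 0.989 for every pair of Sage arrays. Signals of added control RNAs and the ratio of 3' to 5' probe sets also separated the groups. That ratio was greater with Sage, on the log2 scale by 0.99 for the probe sets labelled actin, 0.61 for Act5C, 0.51 for GAPDH and 0.43 for eIF4A, with no overlap between groups in any of these 4. Handling and group cannot be told apart in this design.

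Of the 37 genes, 16 were lower with Sage at an adjusted p under 0.05 and 1 was higher, by limma with Benjamini-Hochberg adjustment over 18769 probe sets. Over all probe sets 9.45% were lower and 4.25% were higher by the same rule. Many probe sets were dimmer than the 37 genes, with a median control mean of 5.68 against 8.85. With dim probe sets left out, 1750 of 9385 were lower and 742 higher, and 17 of the listed genes were lower and 1 higher. That filter removed Mps1, gammaTub37C and mud, the last being 1 of the 16 that fell. Klp67A and spd-2 passed only with it among these counts. All 16 falls were at least 2-fold, a size reached with the same call by 5.03% of all probe sets. The differences over the 37 genes had a median of -1.29 and ran from -3.60 for pim to 0.47 for Cks85A, beside a median of 0.00 over all probe sets. Without control replicate 3 the median of the 37 was -0.80 and 19 were lower. In 33 of the 37 genes the mean was lower with Sage. In 23 genes every control array lay above every Sage array, against 18.1% of all probe sets, and in 1 gene every control array lay below, against 16.6%. In whole embryos, fewer dividing cells and less RNA per dividing cell cannot be told apart.

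**Figure D1:**
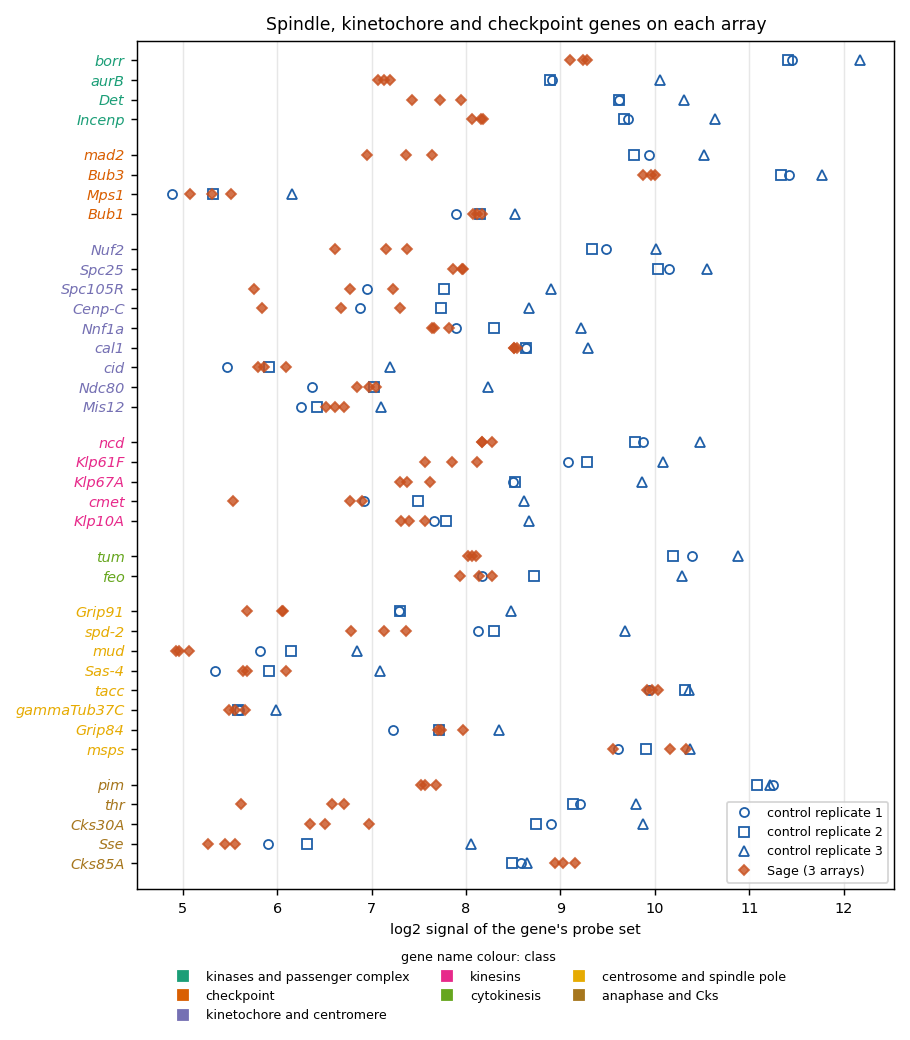
Log2 signal (horizontal axis) of the 37 genes on each array, with open blue symbols for the 3 control arrays, orange diamonds for the 3 Sage arrays and gene names coloured by class. Control replicate 3 (triangles) is the highest control array in 36 of 37 genes, and the 3 control symbols of pim lie within 0.17 of each other, far to the right of its Sage symbols.

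The regulators of anaphase onset gave the largest differences. pim encodes securin, the inhibitor of separase, and its log2 signal was 11.25, 11.09 and 11.22 in the controls and 7.68, 7.52 and 7.57 with Sage. Both groups were tight and far apart. The mean fell 12.1-fold, from 11.19 ± 0.09 to 7.59 ± 0.08 (SD, n = 3; log2 difference -3.60, SE 0.09, adjusted p = 3.69e-05 by limma). thr, which encodes a partner subunit of separase, had signals of 9.20, 9.14 and 9.80 in the controls and 6.71, 5.61 and 6.58 with Sage. It fell 8.46-fold (SE of the log2 difference 0.34, adjusted p = 0.00344 by limma), and Sage replicate 2 lay well below the other two Sage arrays.

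Sse, the separase gene itself, was dim and uneven, at 5.90, 6.32 and 8.06 in the controls and 5.55, 5.27 and 5.45 with Sage. Control replicate 3 stood far above the other arrays, and the difference of -1.34 (95% confidence interval -2.68 to 0.01, adjusted p = 0.191 by limma) did not pass. Without control replicate 3 the difference shrank to -0.69 and passed (adjusted p = 0.0374 by limma). The securin signal relative to that of Sse, taken within each array, differed between the groups by -2.26, with no overlap (exact two-sided permutation p = 0.1, the smallest that 3 arrays against 3 allow). That pair and 4 others below were chosen after their values were seen, and the p adjusted over these 5 pairs is also 0.1 for each. Each of the 5 sets a gene that fell beside one that did not pass. The lack of overlap therefore follows at least in part from the choice, which the adjustment does not cover, and these p-values only describe the pairs.

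The Cks genes, which encode small proteins that bind cyclin-dependent kinases, moved in opposite directions. Cks30A, which is needed in the fly for female meiosis and the early embryonic divisions, had signals of 8.90, 8.74 and 9.87 in the controls and 6.98, 6.35 and 6.50 with Sage. It fell 5.91-fold (log2 difference -2.56, SE 0.34, adjusted p = 0.00606 by limma). Cks85A was at 8.58, 8.48 and 8.65 in the controls and 8.94, 9.15 and 9.02 with Sage, so that the groups did not overlap. It rose 1.38-fold (log2 difference 0.47, SE 0.09, adjusted p = 0.0248 by limma), the single rise among the 37 genes. That call was lost without control replicate 2 (adjusted p = 0.091 by limma) and without each Sage array in turn (limma adjusted p of 0.0528, 0.079 and 0.104 for replicates 1 to 3), and with the replicate number as a block (adjusted p = 0.114), array medians centred (0.112) or a trended and robust prior (0.0882). The Cks30A signal over that of Cks85A changed by -3.03 between the groups, from 0.60 ± 0.54 to -2.43 ± 0.43 (SD, n = 3), with no overlap (exact two-sided permutation p = 0.1, the smallest possible). The other 3 pairs of related genes named for such a comparison lacked a probe set for at least 1 partner.

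The chromosomal passenger complex, which corrects faulty kinetochore attachments and later acts in cytokinesis, was lower in every measured subunit (4 of 4). Over all probe sets 9.45% were lower, and 1750 of 9385 with dim ones left out. borr (borealin) had signals of 11.45, 11.41 and 12.17 in the controls and 9.28, 9.10 and 9.24 with Sage. It fell 5.56-fold (SE 0.22, adjusted p = 0.00185 by limma). aurB, the Aurora B kinase of the complex, was at 8.92, 8.89 and 10.05 in the controls and 7.19, 7.13 and 7.06 with Sage, and fell 4.46-fold (SE 0.32, adjusted p = 0.00923 by limma). In both genes control replicates 1 and 2 were nearly equal and control replicate 3 was higher.

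Det (deterin, the survivin of the fly) had signals of 9.62, 9.61 and 10.31 in the controls and 7.95, 7.43 and 7.73 with Sage, and fell 4.43-fold (SE 0.24, adjusted p = 0.00342 by limma). Incenp, the scaffold that activates Aurora B, was at 9.72, 9.67 and 10.63 in the controls and 8.07, 8.16 and 8.18 with Sage, and fell 3.65-fold (SE 0.27, adjusted p = 0.008 by limma). In all 4 genes control replicates 1 and 2 were within 0.05 of each other. Every control array lay above every Sage array in these 4, against 18.1% of all probe sets. aurB alone of the 4 missed the threshold in a fit with an array left out, without Sage replicate 3 (adjusted p = 0.0521 by limma, log2 difference -2.13).

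The checkpoint genes split. mad2, whose product is the core of the inhibitor of anaphase, had signals of 9.93, 9.78 and 10.52 in the controls and 7.64, 6.96 and 7.37 with Sage, and fell 6.77-fold (log2 difference -2.76, SE 0.26, adjusted p = 0.00218 by limma). Bub3, which brings checkpoint kinases to the kinetochore, was at 11.41, 11.34 and 11.77 in the controls and 10.01, 9.96 and 9.87 with Sage, and fell 2.95-fold (SE 0.13, adjusted p = 0.00168 by limma). The groups were well apart in both genes.

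The measured kinase genes of the checkpoint did not pass. Bub1 had signals of 7.89, 8.15 and 8.51 in the controls and 8.12, 8.08 and 8.17 with Sage, with the Sage arrays inside the range of the controls. Its difference was -0.07 (95% confidence interval -0.47 to 0.34, adjusted p = 0.86 by limma). Mps1, the kinase that starts checkpoint signalling, was dim, at 4.88, 5.32 and 6.15 in the controls and 5.51, 5.08 and 5.31 with Sage, with a difference of -0.15 (interval -0.96 to 0.66, adjusted p = 0.835 by limma). Without control replicate 3 both differences were positive, at 0.10 for Bub1 and 0.20 for Mps1. At the low signals of Mps1, near or below the array medians, changes are compressed on this scale. The same limit holds on most arrays for Sse above and for cid, Sas-4, gammaTub37C and mud below.

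**Figure D2:**
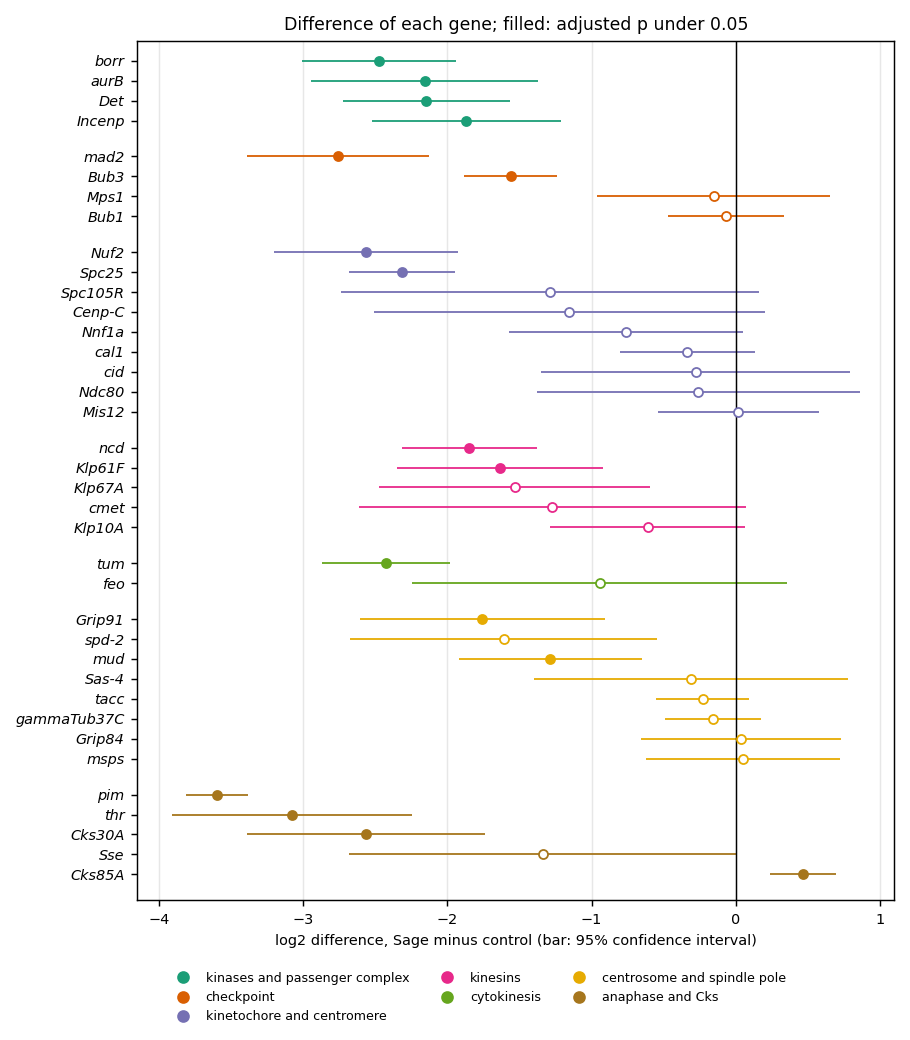
Log2 difference (Sage minus control, horizontal axis) of each gene by limma with its unadjusted 95% confidence interval, coloured by class, filled where the adjusted p was under 0.05. All 4 passenger complex genes are filled and far left of 0, while the kinetochore and centrosome classes spread from -2.56 (Nuf2) to 0.05 (msps).

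Among 9 genes of the kinetochore and centromere, 2 fell, beside 9.45% of all probe sets and 1750 of 9385 with dim ones left out. The other 7 did not pass, and the class median was -0.76. Both falls were subunits of the NDC80 complex, which binds the microtubule end. Nuf2 had signals of 9.48, 9.33 and 10.01 in the controls and 7.37, 6.61 and 7.15 with Sage, and fell 5.90-fold (SE 0.26, adjusted p = 0.00271 by limma). Spc25 was at 10.15, 10.03 and 10.55 in the controls and 7.97, 7.86 and 7.96 with Sage, and fell 4.98-fold (SE 0.15, adjusted p = 0.00105 by limma). Every control array lay far above every Sage array in both genes.

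Ndc80, which gives the same complex its name, did not follow. Its signals were 6.37, 7.03 and 8.24 in the controls and 7.04, 6.97 and 6.84 with Sage, so that control replicate 1 lay below all Sage arrays and control replicate 3 above them. The difference was -0.26 (95% confidence interval -1.38 to 0.86, adjusted p = 0.791 by limma) and turned to 0.26 without control replicate 3, and was -0.68 without control replicate 1. Within arrays, the signal of Spc25 over that of Ndc80 differed between the groups by -2.06 and that of Nuf2 over Ndc80 by -2.30, without overlap in either (exact two-sided permutation p = 0.1 for each, the smallest possible).

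Other kinetochore genes also had wide control values. Spc105R, the fly KNL1 that serves as the platform for Bub proteins, was at 6.95, 7.76 and 8.90 in the controls and 7.23, 5.75 and 6.77 with Sage (difference -1.29, 95% confidence interval -2.74 to 0.16, adjusted p = 0.236 by limma). Cenp-C, which links the centromere to the outer kinetochore, was at 6.87, 7.73 and 8.67 in the controls and 7.30, 5.84 and 6.68 with Sage (difference -1.15, interval -2.51 to 0.20, adjusted p = 0.254 by limma). The groups overlapped in both genes. Sage replicate 2 was the lowest array of all 6 for both. Without control replicate 3 the differences shrank to -0.77 for Spc105R and -0.70 for Cenp-C, and neither passed.

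The other members of this class had smaller differences that did not pass. Nnf1a, of the MIS12 complex, had -0.76 (adjusted p = 0.215), Mis12 itself 0.02 (adjusted p = 0.974), cal1, the loading factor of the centromeric histone, -0.33 (adjusted p = 0.339), and cid, that histone, -0.28 (adjusted p = 0.762; all by limma). cal1 was close to constant outside control replicate 3, at 8.63 and 8.64 in control replicates 1 and 2 and 8.54, 8.50 and 8.51 with Sage. cid ranged from 5.47 in control replicate 1 to 7.20 in control replicate 3, with the Sage arrays between them. Without control replicate 3 the differences were -0.39 for Nnf1a, -0.12 for cal1 and 0.22 for cid, none past the threshold.

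**Figure D3:**
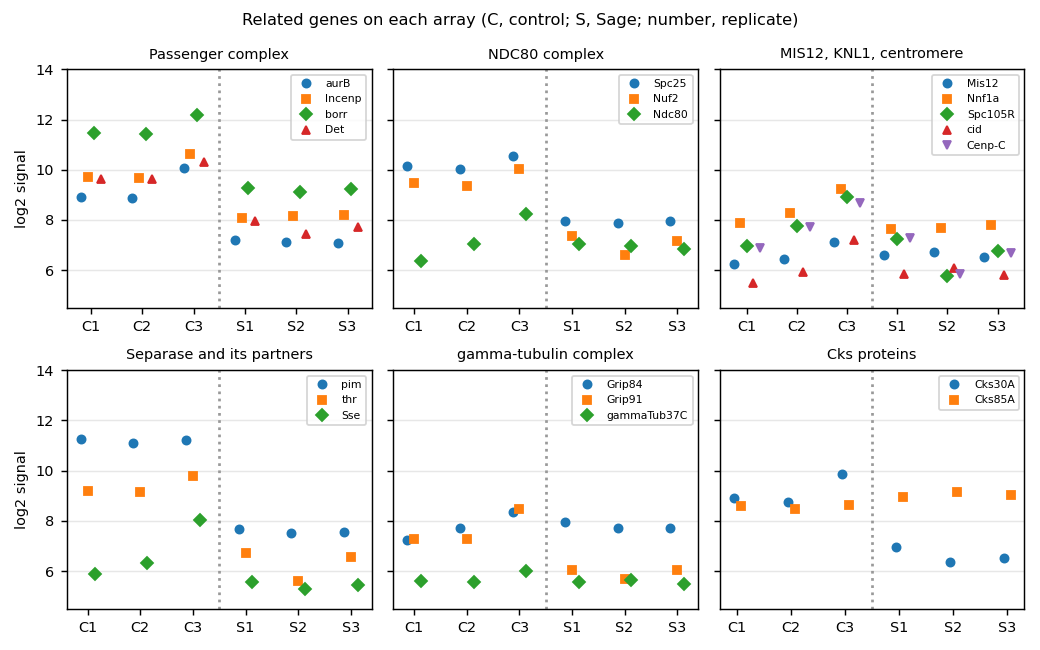
Log2 signal (vertical axis) on each control (C) and Sage (S) array for genes grouped by complex or function, each gene with its own symbol. Within a panel the distances between genes are not levels to be compared, since probe sets differ; Spc25 and Nuf2 are lower on all Sage arrays while Ndc80 is not, and Cks30A and Cks85A separate in opposite directions.

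Of 5 kinesin genes 2 fell, beside 9.45% of all probe sets and 1750 of 9385 with dim ones left out. All 5 had negative differences, with a median of -1.53. ncd, a minus-end motor of the spindle, had signals of 9.88, 9.79 and 10.48 in the controls and 8.27, 8.17 and 8.16 with Sage, and fell 3.60-fold (SE 0.19, adjusted p = 0.00284 by limma). Klp61F, the kinesin-5 that pushes spindle poles apart, was at 9.08, 9.28 and 10.08 in the controls and 8.12, 7.56 and 7.86 with Sage, and fell 3.11-fold (SE 0.29, adjusted p = 0.0169 by limma). The Klp61F call was lost when Sage replicate 2 (limma adjusted p = 0.0713) or 3 (0.0769) was left out, and with the replicate number as a block (adjusted p = 0.0518).

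Klp67A, a kinesin that shortens kinetochore microtubules, narrowly missed. Its signals were 8.50, 8.52 and 9.86 in the controls and 7.62, 7.38 and 7.30 with Sage, with a difference of -1.53 (SE 0.38, adjusted p = 0.052 by limma). It passed without control replicate 3, with a smaller difference of -1.08 (adjusted p = 0.00314 by limma), and without control replicate 1 (-1.76, adjusted p = 0.0382). It also passed on all 6 arrays with medians centred (limma adjusted p = 0.0452), with dim probe sets left out (0.0337), with a trended and robust prior (0.0375) and with array weights (0.00029), and not with quantile normalization (0.0542) or the replicate block (0.111). cmet, a CENP-E motor, was at 6.92, 7.49 and 8.61 in the controls and 6.89, 5.53 and 6.77 with Sage (difference -1.27, adjusted p = 0.209 by limma), and Klp10A, a microtubule depolymerase, had -0.61 (adjusted p = 0.23 by limma). Without control replicate 3 these were -0.80 for cmet and -0.29 for Klp10A, and cmet had -0.84 without Sage replicate 2, none past the threshold. In all 5 kinesin genes every control array lay above every Sage array, against 18.1% of all probe sets. The gap was small for Klp10A (lowest control 7.66, highest Sage 7.57), and for cmet control replicate 1 and Sage replicate 1 nearly met.

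Of the cytokinesis genes only tum and feo were measured. tum (tumbleweed), the GTPase-activating subunit of centralspindlin, had signals of 10.40, 10.19 and 10.88 in the controls and 8.06, 8.11 and 8.02 with Sage, and fell 5.37-fold (log2 difference -2.42, SE 0.18, adjusted p = 0.00126 by limma). feo (fascetto), the fly PRC1 that bundles midzone microtubules, was at 8.17, 8.72 and 10.28 in the controls and 8.13, 8.27 and 7.93 with Sage. Control replicate 1 lay among the Sage arrays and control replicate 3 lay far above them. The difference for feo was -0.94 (95% confidence interval -2.24 to 0.36, adjusted p = 0.33 by limma) and was -0.33 without control replicate 3. The within-array signal of tum over feo differed between the groups by -1.48, without overlap (exact two-sided permutation p = 0.1, the smallest possible).

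The centrosome and spindle pole genes had the class median nearest to 0, at -0.27. Of these 8 genes 2 fell, beside 9.45% of all probe sets and 1750 of 9385 with dim ones left out. Grip91, a subunit of the small gamma-tubulin complex that nucleates microtubules, had signals of 7.29, 7.30 and 8.47 in the controls and 6.05, 5.68 and 6.06 with Sage, and fell 3.38-fold (SE 0.35, adjusted p = 0.0237 by limma). Grip84, its partner in that complex, was at 7.23, 7.71 and 8.35 in the controls and 7.97, 7.73 and 7.71 with Sage, with a difference of 0.04 (95% confidence interval -0.65 to 0.73, adjusted p = 0.958 by limma). The signal of Grip91 over that of Grip84 differed between the groups by -1.80, without overlap (exact two-sided permutation p = 0.1, the smallest possible). The Grip91 call was lost when any Sage array was left out (limma adjusted p of 0.0774, 0.0966 and 0.088 for replicates 1 to 3).

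mud, the fly NuMA that orients the spindle in neuroblasts, had 3 probe sets, and only the brightest passed. It was at 5.82, 6.15 and 6.85 in the controls and 5.07, 4.96 and 4.93 with Sage, and fell 2.44-fold (SE 0.26, adjusted p = 0.0258 by limma). The other two probe sets, dimmer, had differences of -0.35 (adjusted p = 0.248) and -0.03 (adjusted p = 0.915). The call was lost without control replicate 2 (adjusted p = 0.0712 by limma), without Sage replicate 1, 2 or 3 (0.0822, 0.0971 and 0.11), with a block (0.0721) and with the mean of the 3 probe sets (0.106, log2 difference -0.56).

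spd-2, which builds the pericentriolar material, was at 8.12, 8.30 and 9.68 in the controls and 7.36, 7.14 and 6.78 with Sage. All controls lay above all Sage arrays, and the difference of -1.61 (SE 0.43, adjusted p = 0.0658 by limma) did not pass. It passed without control replicate 3 (-1.12, adjusted p = 0.0129 by limma) and without control replicate 1 (-1.90, adjusted p = 0.0391), and with dim probe sets left out (0.0411) and array weights (0.000369). msps, a microtubule polymerase, and tacc, its partner at the centrosome, were bright and had differences of 0.05 (95% confidence interval -0.62 to 0.72) and -0.23 (interval -0.55 to 0.09). Sas-4, a centriole protein gene, was at 5.35, 5.91 and 7.09 in the controls and 6.10, 5.64 and 5.68 with Sage, so the groups overlapped, with a difference of -0.31 (interval -1.40 to 0.78) that turned to 0.18 without control replicate 3 and was -0.70 without control replicate 1. gammaTub37C, the maternal gamma-tubulin, was dim on all arrays, between 5.48 and 5.99, and differed by -0.16 (interval -0.49 to 0.17).

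The control arrays differed among themselves in these genes. Relative to the average Sage signal, the median over the 37 genes was 0.52 for control replicate 1, 1.13 for replicate 2 and 2.21 for replicate 3, while the same medians over all probe sets were -0.04, -0.02 and 0.07. Control replicate 3 was the highest control array in 36 genes, the exception being pim, against 57.7% of all probe sets, and the highest of all 6 arrays in 35, against 40.1%. In control replicate 1, 27 of the 37 genes were above the Sage mean, against 42.4% of all probe sets, and 32 and 36 were in control replicates 2 and 3. The median SD of the 37 genes was 0.53 in the controls and 0.14 with Sage, beside 0.16 and 0.11 over all probe sets. Among the Sage arrays, replicate 2 was the lowest in 19 of the 37 genes, against 30.4% of all probe sets.

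The 16 genes that fell and the 20 that did not pass were split by the test on these same values. That test uses both the distance between the groups and the spread within them. The contrasts given here therefore follow at least in part from the split, and only describe it. In the 16, the median was 2.07, 2.01 and 2.72 above the Sage mean in control replicates 1, 2 and 3, so that each control array alone stood well above Sage. In the 20 genes the same medians were 0.05, 0.23 and 1.28, and in 19 of them control replicate 1 was the lowest and control replicate 3 the highest control array. That arrangement held in 3 of the 16 and in 36% of all probe sets. Control replicates 1 and 2 differed by a median of 0.10 in the 16 genes and 0.40 in the 20. The control means of the 16 ran from 6.27 to 11.68 and those of the 20 from 5.45 to 10.20.

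By class, control replicate 1 stood above the Sage mean by a median of 2.30 in the anaphase and Cks genes, 1.85 in the passenger complex, 1.20 in the cytokinesis pair, 1.07 in the kinesins, 0.62 in the checkpoint genes and 0.19 in the kinetochore genes. In the centrosome genes its median lay at the Sage mean. In control replicate 3 every class was higher than Sage, from 0.92 in the centrosome genes to 3.26 in the anaphase and Cks genes.

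**Figure D4:**
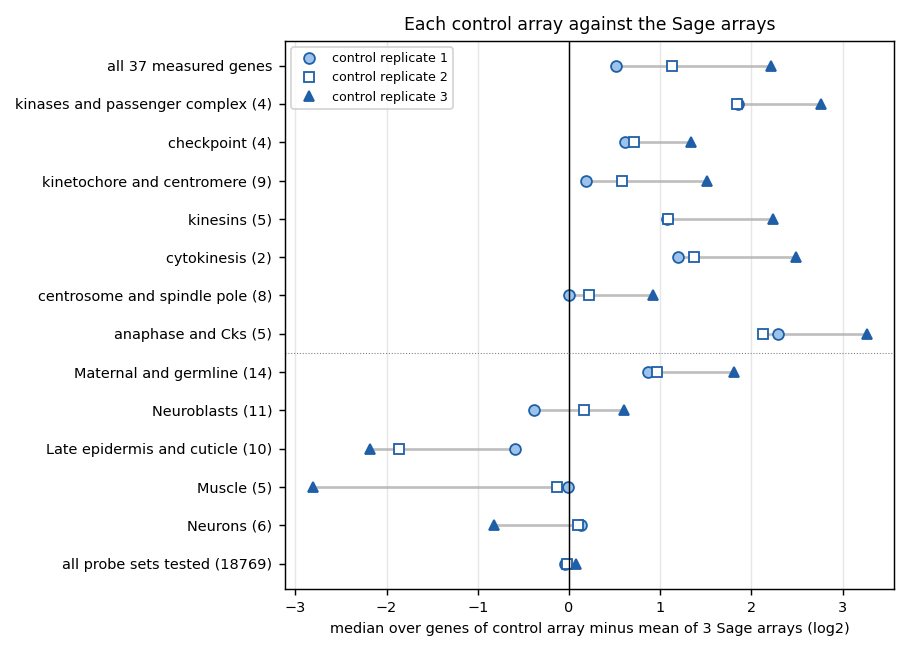
Median over genes (horizontal axis, log2) of each control array minus the mean of the 3 Sage arrays, for the 37 genes, their classes and, below the dotted line, marker lists and all probe sets, with the number of genes in parentheses. Control replicate 3 is the most distant from Sage in every class, and it is also the most distant in the muscle, neuron and cuticle lists, in the other direction.

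Marker lists of cell types also differed among the control arrays. The median of 10 genes of late epidermis and cuticle was -0.59, -1.87 and -2.18 against Sage in control replicates 1, 2 and 3. All 10 differences between groups were positive. Of the 10, 3 rose (TwdlN, Ccp84Ae and Ddc) and none fell, beside 4.25% and 9.45% of all probe sets. With dim probe sets left out, 742 of 9385 were higher and 1750 lower. Of 5 muscle genes none passed, and their median was -0.01, -0.13 and -2.81 in the 3 control arrays. At an unadjusted p under 0.05 no muscle gene was higher or lower by limma, beside 12% and 14.6% of all probe sets. The median of 6 neuronal genes was 0.13, 0.10 and -0.82, and none passed (1 of 6 was lower at an unadjusted p under 0.05 by limma, beside 14.6% of all probe sets). Bright signals of Mlc1, a myosin light chain gene, between 10.47 and 13.29, and of elav, a pan-neuronal gene, between 10.08 and 11.10, were present on all arrays. Mlc1 was lowest in control replicate 3. Other neuronal genes were not bright on all arrays. Syn was at 9.11, 8.60 and 5.74 in the controls and 9.52, 9.30 and 9.41 with Sage. Gad1 was at 8.60, 7.78 and 4.92 in the controls and 8.85, 8.68 and 9.02 with Sage. Of the 6 neuronal differences 3 were negative, elav among them, and 3 positive.

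Of 11 genes listed for neuroblasts, brat (log2 difference -2.32) and klu (-1.32) fell, and 9 did not pass. Over all probe sets 9.45% fell, and 1750 of 9385 with dim ones left out. The medians over the 11 were -0.38, 0.17 and 0.61 against Sage in control replicates 1, 2 and 3. The defining neuroblast genes ase and wor had differences of -0.77 and -0.65, mira 0.60, insc 0.36, cas 0.34 and dpn -0.12, none past the threshold. Of the 11 differences 7 were negative and 4 positive. In 10 of the 11 genes control replicate 1 was the lowest and control replicate 3 the highest control array, brat being the exception. Of 14 maternal and germline genes 6 fell and none rose. Beside these, 9.45% and 4.25% of all probe sets fell and rose, or 1750 and 742 of 9385 with dim ones left out. At an unadjusted p under 0.05 by limma 8 of the 14 were lower and none was higher, beside 14.6% and 12% of all probe sets. The medians over the 14 were 0.86, 0.97 and 1.81 against Sage. Those that did not pass were osk (-2.48), stau (-0.54), gnu (-0.53), tud (-0.37), vas (-0.30), exu (-0.10), png (-0.04) and gcl (0.20). For osk every control array lay above every Sage array (adjusted p = 0.0549 by limma). vas, png and exu were dim, near or below the array medians, where changes are compressed. swa, an RNA-localising factor of the oocyte, fell by 4.48 and plu, a regulator of the first S phases, fell by 4.37 on the log2 scale. The part of embryo age, of maternal RNA and of cell type in the differences of the 37 genes was not tested.

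Other genes of the mitotic apparatus outside the 37 were lower in part. Of 57 measured among 70 listed, 16 fell and none rose, beside 9.45% and 4.25% of all probe sets, with a median of -0.45. With dim probe sets left out, 1750 of 9385 were lower and 742 higher, and 17 of these other mitotic genes were lower. At an unadjusted p under 0.05 by limma, with no filter, 25 of the 57 were lower and 1 was higher, beside 14.6% and 12% of all probe sets. The largest falls were those of mars, a spindle-associated protein gene, at -2.74 (adjusted p = 0.00142 by limma), and mei-S332, the shugoshin that protects centromeric cohesion, at -2.29 (adjusted p = 0.00467). mars had signals of 9.20, 9.10 and 9.89 in the controls and 6.63, 6.64 and 6.72 with Sage. fzy, the Cdc20 that securin destruction needs, had -2.06 (adjusted p = 0.00588 by limma), while fzr, its relative used after mitosis, had 0.11 (adjusted p = 0.862). The condensin genes SMC2, glu and Cap-D2 fell by 2.09, 2.03 and 1.84 on the log2 scale, and barr and Cap-G, of the same complex, had differences of -0.28 and -0.03 that did not pass. fzy, fzr and these condensin genes were named after their values were seen.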

How the data were processed

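RNA was measured on 3 control and 3 Sage arrays. Embryos were kept at 25 C, sorted on a COPAS biosorter and extracted with TriZol, and amplified RNA was labelled from its 3' end, per the labels' protocols. The authors deposited log2 signals per probe set, and the submitters' processing notes name RMA and Partek without versions. RMA equalises the arrays, so a change in total RNA per embryo cannot be seen, and it compresses differences near background. With 3 arrays per group, their number limits the precision.

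After removal of 183 control probe sets from 18952, all 18769 others were tested with no filter. Exactly 1 gene was given for 13647 by the platform annotation, more than 1 for 402 and none for 4720. Current symbols for 13544 came from RefSeq (Release 6) by Entrez identifier, and synonyms from the same table. The test was limma 3.58.1 (lmFit, eBayes; R 4.3.3) on Sage minus control, two-sided, with Benjamini-Hochberg adjustment over all tested probe sets at 0.05, and it was tested on simulated data. With 200 of 18769 probe sets changed in simulated arrays of the same 2 groups, 95.5% of 4-fold, 82.1% of 2-fold and 49.3% of 1.5-fold changes were called, and 11 of 162 calls were false; the simulated spread was that of the Sage arrays, which is tighter than that of the controls. Related genes were compared by within-array differences with an exact permutation test. The 37 genes and all lists were chosen with earlier results of these data known. Values on every array were given for up to 4 genes per class that passed with the largest differences and up to 2 that did not, with further genes named by their values.

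Replicate numbers were not taken as pairs, since same-numbered arrays did not deviate together. The search for promoter motifs was not run, and no sequence or coordinate was used here. Alternatives were each array left out, the replicate block, quantile normalization, median centring, a filter on dim probe sets, array weights, a trended and robust prior, and the mean of a gene's probe sets.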

Additional observations from a re-analysis of the deposited data

Results flagged for a closer look

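Control RNAs added to every sample for hybridisation, which enter no gene comparison, had higher log2 signals on the Sage arrays than on the control arrays. The differences were 1.36 for BioB, 0.916 for BioC, 1.17 for BioDn and 0.365 for CreX, and in each the lowest Sage array lay above the highest control array (exact two-sided permutation p = 0.1, the smallest that 3 arrays against 3 allow). Of the labelling controls, DapX, PheX and ThrX were lower on the Sage arrays, with differences of -0.62, -0.36 and -0.39 and no overlap, and LysX overlapped. All of these labelling controls were dim, between 4.51 and 6.33 on the 6 arrays, near or below the array medians of 5.55 to 5.72. Their differences therefore lie near background. The part of the added control RNAs in the differences of the mitotic genes was not tested.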

How the results depend on the processing

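Of the 16 genes that fell, 12 were called lower under every alternative that tested them, the exceptions being aurB, Klp61F, Grip91 and mud, as given above. The number lower among the 37 ran from 12 (without Sage replicate 3) to 19 (without control replicate 3) with an array left out and was 26 with array weights, a fit that did not fully converge and that called 4922 probe sets lower and 4869 higher over all. The number higher ran from 0 to 1 with an array left out. It was 0 with the replicate block, with array medians centred and with the trended and robust prior. The other mitotic genes lower numbered 11 to 20 with an array left out and 32 with array weights. The median over the 37 genes ran from -1.65 to -0.80 with an array left out, and stayed negative in all alternatives run. The difference of Cks30A over Cks85A ran from -3.26 to -2.72.

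With an array left out, 8 genes that did not pass changed sign. Their ranges were -0.15 to 0.27 for Mis12, -0.13 to 0.28 for msps, -0.23 to 0.33 for Grip84, -0.21 to 0.10 for Bub1, -0.44 to 0.20 for Mps1, -0.64 to 0.22 for cid, -0.68 to 0.26 for Ndc80 and -0.70 to 0.18 for Sas-4. Quantile normalization turned Bub1 to 0.034 and Mis12 to -0.061, and median centring, which moved the median of all probe sets to -0.09, turned Mis12 to -0.073, msps to -0.041 and Grip84 to -0.053. Centring also lost the call of Cks85A. With the replicate number as a block, 14 genes were lower, and 14 of the 16 falls kept their call, Klp61F (adjusted p = 0.0518) and mud (adjusted p = 0.0721) not. The deviations of same-numbered arrays had correlations of -0.13, -0.07 and -0.25, so the numbers do not show pairs. Over all probe sets, 1774 were lower and 797 higher in the reported test, against 934 and 266 without Sage replicate 3 and 1057 and 341 with the block.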
